A study of Mus musculus with 7 samples.

Results

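The genes described here are 10 members of the Hippo pathway that carry, regulate or report the activity of the coactivators YAP and TAZ: Yap1, Wwtr1, Tead1, Lats2, Ajuba, Amotl2, Ankrd1, Axl, Nuak2 and F3. They were chosen by name, and each symbol was matched through its Ensembl identifier to 1 row of a count table of 54446 mouse genes. All 10 passed the filter on low counts that left 16438 genes for testing. The samples were 7 libraries of poly-A RNA from pancreatic spheroids, which are epithelial cultures grown in 3 dimensions. Of these, 4 came from C57BL/6J wild-type mice that had earlier received caerulein, a cholecystokinin analogue that brings on acute pancreatitis (post-caerulein 1 to 4), and 3 came from untreated mice of that strain (untreated 1 to 3). Every culture was kept in one medium, which contained epidermal growth factor, hydrocortisone, cholera toxin, insulin, thyroid hormone and a serum supplement. No source used here states how old the mice were, how long after caerulein the cultures were made or whether each replicate was a separate animal. The p-values below therefore rest on library-to-library spread, part of which may be technical. In such bulk RNA, fewer cells of a type and less RNA per cell cannot be told apart.

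In the Hippo pathway, the kinases MST1 and MST2 activate LATS1 and LATS2, which phosphorylate YAP and TAZ and keep them out of the nucleus. When this brake is released, YAP and TAZ bind the TEAD transcription factors and switch on genes of growth, adhesion and matrix, several of which feed back on the pathway. Because control is exerted largely on the proteins, the mRNA level of a target can change without a change in Yap1 or Wwtr1 mRNA. In the mouse pancreas YAP is prominent in duct and centroacinar cells and low in resting acinar cells, and it is raised during pancreatitis and acinar-to-ductal conversion.

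The core motif that TEAD factors recognise is GGAATG. When the other strand of the DNA is printed, that motif appears as CATTCC. RefSeq promoters (GRCm38.p6) were at hand for 8 of the 10 genes, not for Tead1 and Nuak2, and the 250 bases before each start were searched on both strands. The core was present for 6 of these 8 genes, Yap1, Wwtr1, Ankrd1, Amotl2, Axl and Ajuba, and in 7 of their 10 listed promoters, 1 of which overlaps another at the same gene. Of all 32851 promoters of the same length, 12.6% held it. Among the other pathway genes described below, it was in 2 of 10 listed promoters of other YAP and TAZ targets. It was in 3 of 14 promoters of kinases, scaffolds and upstream regulators, and in 5 of 9 of cofactors and regulators. Of these 5, 2 are overlapping promoters of Tead3. A match is only a run of letters and says nothing about binding. The promoters below belong to the gene with the largest change, Ankrd1, to the gene for TAZ, to the feedback gene Amotl2 and, as one with no match, to F3. Capitals mark the core, and each sequence is written 5′ to 3′ on the strand of its gene.
Ankrd1, chr19:36119845-36120094, minus strand: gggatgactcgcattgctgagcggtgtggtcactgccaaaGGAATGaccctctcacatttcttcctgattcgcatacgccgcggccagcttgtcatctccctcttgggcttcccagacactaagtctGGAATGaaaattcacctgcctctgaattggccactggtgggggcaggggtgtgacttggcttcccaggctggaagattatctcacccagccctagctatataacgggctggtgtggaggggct
Wwtr1, chr3:57575911-57576160, minus strand: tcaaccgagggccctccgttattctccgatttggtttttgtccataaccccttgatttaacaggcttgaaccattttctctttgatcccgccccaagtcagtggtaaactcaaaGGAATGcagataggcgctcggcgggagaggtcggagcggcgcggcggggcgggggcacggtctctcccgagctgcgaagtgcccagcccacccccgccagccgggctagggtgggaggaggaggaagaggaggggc
Amotl2, chr9:102717554-102717803, plus strand: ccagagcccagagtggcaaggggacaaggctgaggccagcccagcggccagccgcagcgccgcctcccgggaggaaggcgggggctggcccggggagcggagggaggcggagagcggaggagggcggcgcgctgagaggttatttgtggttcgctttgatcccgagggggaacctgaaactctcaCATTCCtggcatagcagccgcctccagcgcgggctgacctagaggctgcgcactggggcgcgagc
F3, chr3:121723287-121723536, plus strand: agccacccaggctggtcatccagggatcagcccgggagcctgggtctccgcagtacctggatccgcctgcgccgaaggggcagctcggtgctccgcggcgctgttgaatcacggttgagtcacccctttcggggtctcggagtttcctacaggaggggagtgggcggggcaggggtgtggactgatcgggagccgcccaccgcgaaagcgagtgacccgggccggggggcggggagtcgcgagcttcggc

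Library totals lay between 34783738 and 46744497 counts, so that even Nuak2, the least abundant of the 10, had 216 to 438 reads per library. The libraries did not group by treatment alone. Along the axis of largest spread (first principal component, 53.9% of the variance) post-caerulein 4 and untreated 3 lay at one end, at 44.5 and 55.4. Untreated 1 and 2 lay at the other end, at -49.3 and -47.1, and post-caerulein 1 to 3 between them, at -9.4, 4.1 and 1.9. A term that holds post-caerulein 4 and untreated 3 against the other 5 libraries gave back the fold changes of the authors' deposited table to within 3.2e-08, together with all 1023 of its calls. That split is called the block below, with the 2 libraries as the smaller and the other 5 as the larger block, and no label says what it stands for. The biological coefficient of variation was 5.73% between post-caerulein 2 and 3 and 8.46% between untreated 1 and 2, but at least 22.0% between any other 2 libraries, so neither close pair can be assumed to be independent. Markers of duct epithelium were abundant in both groups. Krt19, a keratin gene of duct cells, was at 2304 to 4467 CPM (counts per 1000000) in post-caerulein and 2349 to 3020.2 CPM in untreated libraries, and Epcam, an epithelial adhesion gene, at 568 to 664 CPM in post-caerulein and 495 to 760.4 CPM in untreated libraries. The mean CPM of Krt8, Krt18, Krt19, Epcam, Cdh1 and Sox9 was higher and that of Krt7 lower in post-caerulein libraries, with no test. Post-caerulein 1 had the highest Krt8, Krt18, Krt19 and Cdh1 of all 7 libraries, with Krt8 at 6294 CPM against 2845 to 4149 CPM in the others. With the block as a term, 251 genes had an adjusted p under 0.05 (edgeR quasi-likelihood). Leaving out post-caerulein 1 gave 131, and leaving out post-caerulein 2 or 3 gave 29 and 3. Whether the marker levels of post-caerulein 1 had a part in the results was not tested. Markers of fibroblasts (10 genes, 6 of them at 0 in at least 1 library) summed to 3.06 to 7.52 CPM in post-caerulein libraries, and to 0.446, 0.190 and 21.4 CPM in untreated 1, 2 and 3.

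Ankrd1 showed the largest difference among the 10 genes and was higher in post-caerulein spheroids once the block was allowed for, whereas Wwtr1 was lower in the authors' deposited table and in the larger block alone. Each of these calls counts the close pairs as separate libraries, untreated 1 and 2 being the whole untreated side of the larger block, and neither gene passed the quasi-likelihood test once the close pairs were summed. No other of the 10 genes, and not Wwtr1, passed a quasi-likelihood test over all 7 libraries. The authors' deposited table calls 2 of the 10 higher, Ankrd1 and F3, and 1 lower, Wwtr1, against 4.49% and 3.39% of its genes. With the group as the only term, the quasi-likelihood test of edgeR (calls at an adjusted p under 0.05) passed 0 of the 10 genes and 0 of all 16438 (0%). At an unadjusted p under 0.05 the counts were 0 of the 10 and 9.5% of all genes. DESeq2 without the block likewise called 0 of the 10, against 3.12% of all genes it adjusted (1.7% higher and 1.42% lower). For none of the 10 were the groups free of overlap in CPM, against 9.32% of all genes (4.67% higher and 4.65% lower). With the block as a term the quasi-likelihood test called 1 of the 10, Ankrd1, against 1.53% of all genes (0.651% higher and 0.876% lower), and 3 of the 10 had an unadjusted p under 0.05 (Ankrd1, Wwtr1 and F3) against 17.5%. The median log2 fold change of the 10 genes was -0.10 without and -0.06 with the block, beside -0.02 and -0.00 for all genes tested.

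**Figure D1:**
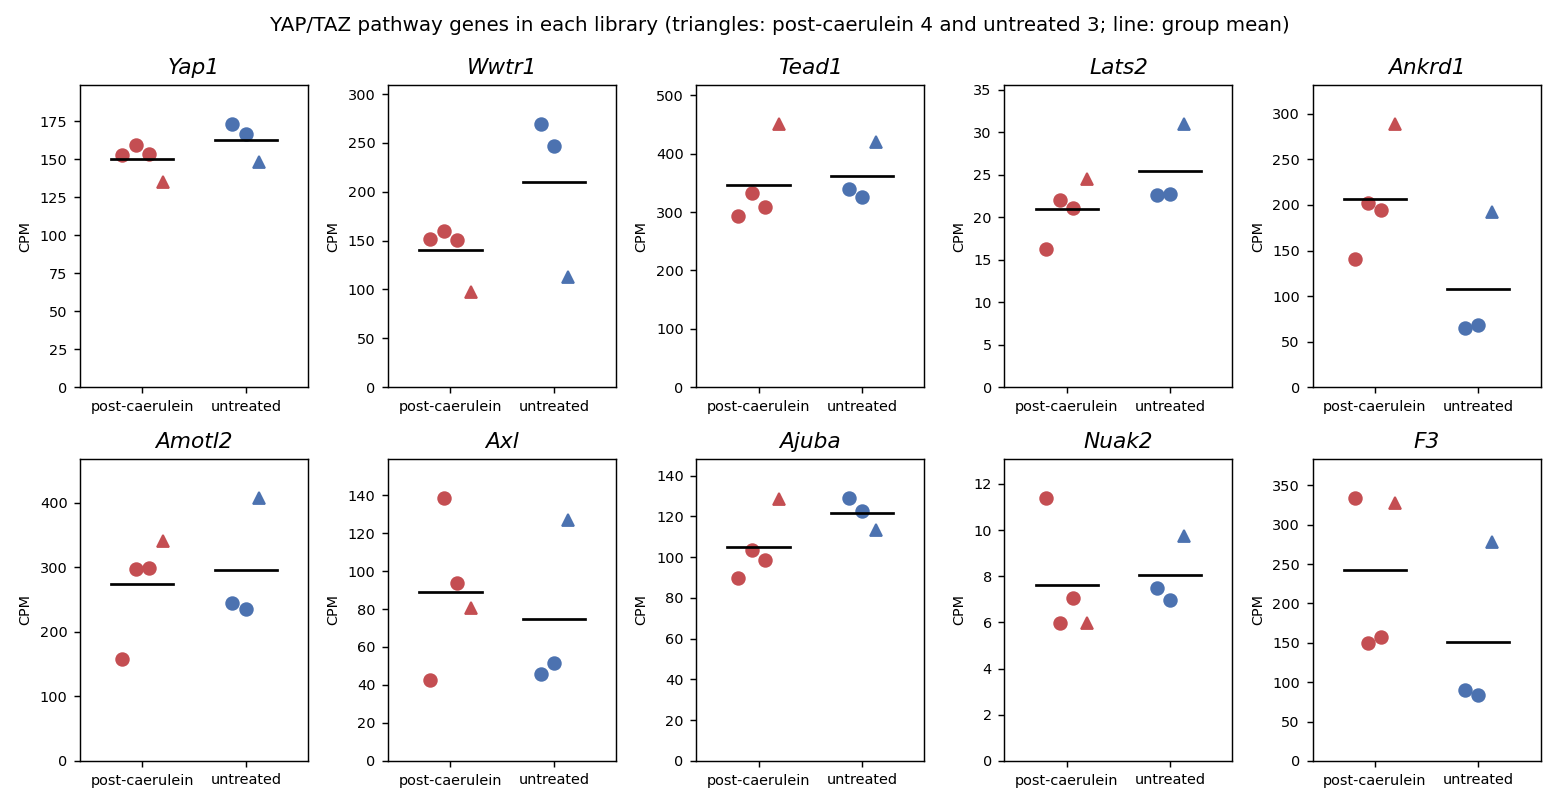
Level of each of the 10 genes in CPM (vertical axis from 0) in the 4 post-caerulein (left) and 3 untreated libraries (right). Points are libraries, black lines are group means, and triangles mark post-caerulein 4 and untreated 3, which lie together for Wwtr1 at 97.1 and 112 CPM.

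The coactivator and DNA-binding genes come first. Yap1 (chromosome 9, 7931999 to 8004596, GRCm38, minus strand, as are all coordinates of the count table on that build) encodes YAP. It was at 153, 159, 153 and 135 CPM in post-caerulein 1 to 4, and at 173, 167 and 149 CPM in untreated 1 to 3. These values lie within a narrow band, and post-caerulein 4 and untreated 3 were the lowest of their groups. The log2 fold change was -0.12 ± 0.11 (SE) without and -0.13 ± 0.07 with the block, with adjusted p of 0.837 and 0.413 (edgeR quasi-likelihood).

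Wwtr1 (chromosome 3, 57455649 to 57575910, minus strand), the gene for TAZ, was at 152, 160.2, 151 and 97.1 CPM in post-caerulein 1 to 4, and at 269, 247 and 112 CPM in untreated 1 to 3. Untreated 1 and 2 were high, post-caerulein 4 and untreated 3 were low, and the groups overlapped through untreated 3 only. The difference between the groups over all 7 libraries was -0.58 ± 0.31 (log2 fold change, SE; adjusted p = 0.643 by edgeR). Adding the block gave -0.59 ± 0.12 (adjusted p = 0.0628, edgeR quasi-likelihood). In the larger block alone, 3 post-caerulein against 2 untreated libraries, Wwtr1 fell by 0.72 on the log2 scale (SE 0.08, adjusted p = 0.00321, edgeR quasi-likelihood), where 13.8% of all genes were called. The untreated libraries of that fit are the close pair, and with both close pairs summed and the block as a term Wwtr1 had -0.52 (adjusted p = 0.694, edgeR quasi-likelihood). The authors' deposited table gives Wwtr1 a log2 fold change of -0.58 with a false discovery rate of 0.00367, and calls 7.88% of its genes. Leaving out untreated 3 moved the difference without the block to -0.86 (adjusted p = 0.0437, edgeR quasi-likelihood), and leaving out any other single library gave -0.36 to -0.65 (adjusted p 0.697 to 0.982). With the block, Wwtr1 missed the threshold without any single library of the larger block (adjusted p 0.110 to 0.330, edgeR quasi-likelihood). It passed without untreated 3 or post-caerulein 4 (adjusted p of 0.00301 and 0.00327, edgeR quasi-likelihood). There the block term absorbs the library left in the smaller block, so these 2 fits repeat the comparison of the larger block alone.

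Per length of transcript, the ratio of Wwtr1 to Yap1 separated untreated 1 and 2 from the other libraries. It was 0.867, 0.877, 0.859 and 0.628 in post-caerulein 1 to 4, and 1.36, 1.29 and 0.659 in untreated 1 to 3. TAZ mRNA thus exceeded YAP mRNA, in CPM per kilobase of exon, in untreated 1 and 2 and lay below it in the other 5 libraries.

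Tead1 (chromosome 7, 112679318 to 112906807, plus strand), a TEAD transcription factor gene, was at 293, 332, 308 and 451 CPM in post-caerulein 1 to 4 and at 339, 326 and 420.5 CPM in untreated 1 to 3. Post-caerulein 4 and untreated 3 stood above the other 5 libraries, and the groups overlapped. Its log2 fold change was -0.06 ± 0.18 without and -0.04 ± 0.09 with the block (SE; adjusted p of 0.964 and 0.887, edgeR quasi-likelihood). Tead1 was the main TEAD gene in every library: in CPM per kilobase it made up 54.8% to 66.0% of the sum of the 4 TEAD genes, while Tead2 made up at most 3.25%.

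The next genes act on LATS or on YAP and TAZ themselves. Lats2 (chromosome 14, 57689662 to 57746123, minus strand), a kinase that phosphorylates YAP and is itself a target of it, was at 16.3, 22.1, 21.1 and 24.5 CPM in post-caerulein 1 to 4 and at 22.7, 22.8 and 31.0 CPM in untreated 1 to 3. Its log2 fold change was -0.28 ± 0.18 without and -0.24 ± 0.13 with the block (SE; adjusted p of 0.732 and 0.393, edgeR quasi-likelihood). The level is uncertain, because 45.7% of the exon bases of Lats2 also belong to the predicted gene Gm49361 on the same strand, which had 0 to 4 reads per library, and reads that fit both genes may have been discarded. Lats1, its partner kinase, is not affected by that overlap and was at 141, 142, 145 and 121 CPM in post-caerulein 1 to 4, against 161, 139 and 127 CPM in untreated 1 to 3.

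Amotl2 (chromosome 9, 102716802 to 102733418, plus strand) encodes an angiomotin that holds YAP at cell junctions and is one of its targets. It was at 158, 297, 299 and 341 CPM in post-caerulein 1 to 4 and at 244, 235 and 407 CPM in untreated 1 to 3. Post-caerulein 1 was the lowest and untreated 3 the highest of the 7. Its log2 fold change was -0.11 ± 0.30 without and -0.03 ± 0.23 with the block (SE), near 0 beside its error, and its sign turned in the larger block alone (0.09 ± 0.27). Amotl2 took 57.2% to 74.0% of the 3 angiomotin genes in CPM per kilobase, ahead of Amotl1 with 18.2% to 28.9% and Amot with 4.24% to 14.4%.

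Ajuba (chromosome 14, 54567472 to 54577558, minus strand), a LIM protein gene whose product restrains LATS, was at 89.6, 104, 98.5 and 129 CPM in post-caerulein 1 to 4 and at 129, 123 and 113 CPM in untreated 1 to 3. Post-caerulein 1 to 3 lay below all untreated libraries, and post-caerulein 4 lay among them. The log2 fold change was -0.21 ± 0.14 without and -0.21 ± 0.12 with the block (SE; adjusted p of 0.732 and 0.437, edgeR quasi-likelihood), and in the larger block alone -0.35 ± 0.09 (adjusted p = 0.0525). In the smaller block the log2 ratio was 0.18, of opposite sign and without a replicate.

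Among the targets, Ankrd1 (chromosome 19, 36111965 to 36119844, minus strand) encodes an ankyrin repeat protein that is among the most used readouts of YAP and TAZ. It was at 140, 203, 194 and 289 CPM in post-caerulein 1 to 4, and at 64.9, 67.7 and 192 CPM in untreated 1 to 3. Untreated 1 and 2 lay below every post-caerulein library, and untreated 3 lay above post-caerulein 1. Ankrd1 averaged 206 ± 61.3 CPM in post-caerulein libraries (SD, n = 4) and 108 ± 72.7 CPM in untreated libraries (SD, n = 3).

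The log2 fold change of Ankrd1 was 0.93 ± 0.43 without the block (SE; adjusted p = 0.572 by edgeR). Once the block was a term, Ankrd1 rose by 1.18 ± 0.21 (adjusted p = 0.0468, edgeR quasi-likelihood), close to the threshold of 0.05. It also rose in the larger block alone, by 1.46 ± 0.17 (adjusted p = 0.00339, edgeR quasi-likelihood), and in the smaller block the CPM of post-caerulein 4 over that of untreated 3 gave a log2 ratio of 0.59, which has no replicate. The call with the block was lost without any one of untreated 1 or 2 or post-caerulein 1, 2 or 3, where adjusted p ran from 0.0711 to 0.306, and with the close pairs summed (adjusted p = 0.603, edgeR quasi-likelihood). In the authors' deposited table Ankrd1 has a log2 fold change of 1.19 and a false discovery rate of 1.05e-06. Fibroblast markers, whose sum was lowest in untreated 1 and 2 as Ankrd1 was, amount to at most 21.4 CPM in any library, and their part in its level was not tested.

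F3 (chromosome 3, 121723537 to 121735048, plus strand), the gene of tissue factor, the trigger of blood coagulation, was at 334, 150.2, 158 and 328 CPM in post-caerulein 1 to 4 and at 90.2, 84.2 and 279 CPM in untreated 1 to 3. As for Ankrd1, untreated 1 and 2 were below every post-caerulein library and untreated 3 was among them. The log2 fold change was 0.68 ± 0.51 without and 0.98 ± 0.35 with the block (SE; adjusted p of 0.786 and 0.204, edgeR quasi-likelihood), and 1.32 ± 0.36 in the larger block (adjusted p = 0.0567). In the authors' deposited table F3 has a log2 fold change of 0.99 and a false discovery rate of 0.00983. The post-caerulein libraries themselves differed, with post-caerulein 1 and 4 above 2 and 3.

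Axl (chromosome 7, 25757273 to 25788705, minus strand), a receptor tyrosine kinase gene whose product binds GAS6, was at 42.7, 138, 93.5 and 80.8 CPM in post-caerulein 1 to 4 and at 45.7, 51.3 and 127 CPM in untreated 1 to 3. It spread over a wide range within each group, with the lowest value in post-caerulein 1 and the highest in post-caerulein 2. The log2 fold change was 0.25 ± 0.47 without and 0.45 ± 0.46 with the block (SE; adjusted p of 0.944 and 0.679, edgeR quasi-likelihood), and the log2 ratio in the smaller block was -0.65. Axl is also expressed by fibroblasts and macrophages. Fibroblast markers were highest in untreated 3, and so were the 5 leukocyte markers, which summed to 12.7, 36.2, 29.3 and 25.1 CPM in post-caerulein 1 to 4 and to 25.3, 21.3 and 98.6 CPM in untreated 1 to 3. Among the post-caerulein libraries that sum had the same order as Axl, but elsewhere it did not. Untreated 1 had a larger sum but less Axl than untreated 2, and untreated 3 a larger sum but less Axl than post-caerulein 2. Nearly all of the leukocyte sum was Cd68, a lysosomal gene abundant in macrophages, while Ptprc, the pan-leukocyte gene of CD45, reached at most 0.105 CPM. The part of these cell types in the level of Axl was not tested.

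Nuak2 (chromosome 1, 132316126 to 132333488, plus strand), a kinase gene of the AMPK-related family, was at 11.4, 5.99, 7.06 and 5.99 CPM in post-caerulein 1 to 4 and at 7.50, 6.98 and 9.74 CPM in untreated 1 to 3. Post-caerulein 1 and untreated 3 were the highest of their groups, and the log2 fold change was -0.09 ± 0.28 without and -0.09 ± 0.28 with the block (SE; adjusted p of 0.967 and 0.912, edgeR quasi-likelihood).

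**Figure D2:**
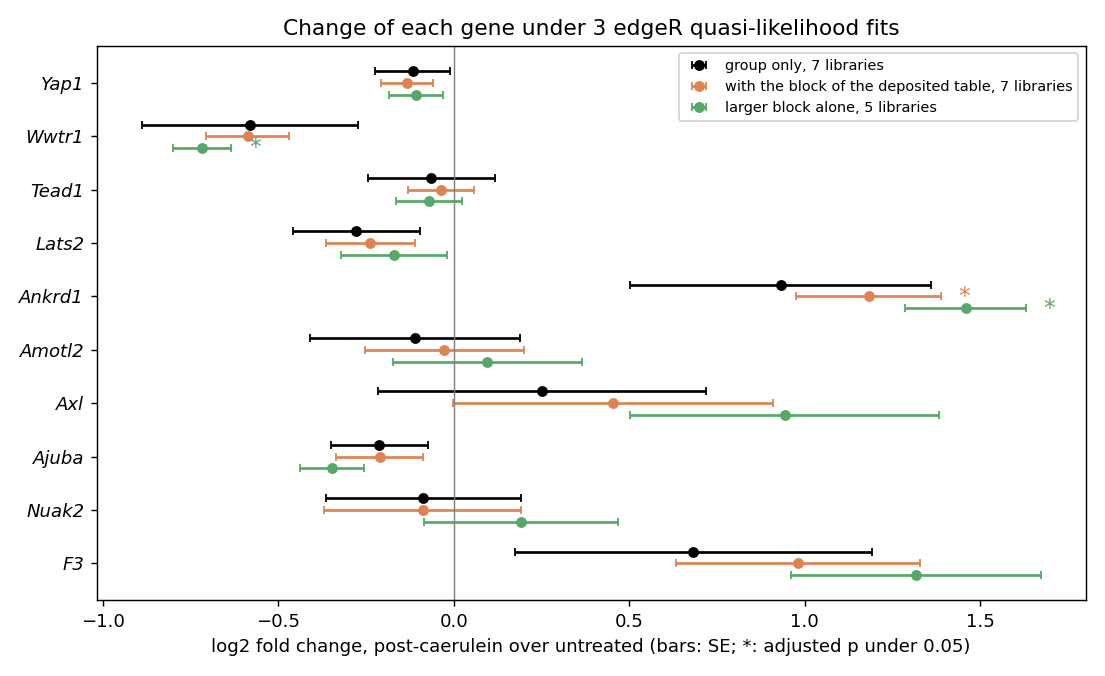
Log2 fold change of each gene, post-caerulein over untreated, with SE bars, for the fit with the group only (black), with the block (orange) and in the larger block alone (green), where an asterisk marks an adjusted p under 0.05. Ankrd1 lies to the right of 0 in all 3 fits, at 0.93, 1.18 and 1.46, and is marked in the last 2, while Wwtr1 lies to the left and is marked in the larger block alone.

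Ordered by level per length, the targets F3, Ankrd1 and Amotl2 had the highest means in both groups. In untreated libraries untreated 3 carried that lead for F3 and Ankrd1: in untreated 1 and 2, Wwtr1, at 56.3 and 51.7 CPM per kilobase, lay above both of them. In post-caerulein libraries F3 averaged 129 ± 54.5, Ankrd1 117 ± 34.7, Amotl2 61.3 ± 17.9, Yap1 36.0 ± 2.53, Tead1 34.4 ± 7.12, Ajuba 30.9 ± 4.91, Wwtr1 29.3 ± 6.05, Axl 20.7 ± 9.22, Lats2 3.24 ± 0.530 and Nuak2 2.43 ± 0.820 CPM per kilobase (SD, n = 4). Neighbours in this order overlapped in their libraries except Ankrd1 with Amotl2 and Axl with Lats2. In untreated libraries F3 averaged 80.7 ± 59.1, Amotl2 66.2 ± 21.6, Ankrd1 61.3 ± 41.2, Wwtr1 43.8 ± 17.8, Yap1 39.0 ± 3.05, Tead1 36.0 ± 5.11, Ajuba 35.8 ± 2.30, Axl 17.4 ± 10.6, Lats2 3.93 ± 0.734 and Nuak2 2.58 ± 0.469 CPM per kilobase (SD, n = 3). There, Ajuba with Axl, Axl with Lats2 and Lats2 with Nuak2 were the neighbours that did not overlap.

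For 5 of the 10 genes both libraries of the smaller block lay outside the range of the other 5 libraries, Tead1, Lats2 and Amotl2 above it and Yap1 and Wwtr1 below it. The same was true of 36.1% of all genes, so that position is common in this table. In the test of whether the change differed between the blocks, in which the single libraries of the smaller block are assumed to vary like the others, 0 of the 10 genes passed, against 3.64% of all genes (edgeR quasi-likelihood interaction of group and block). Their smallest adjusted p in that test was 0.124, that of Wwtr1, and 3 of the 10 (Wwtr1, Ajuba and Ankrd1) had an unadjusted p under 0.05 against 20.9% of all genes.

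The pathway beyond these genes was read from 40 further genes in 3 lists, of which 37 passed the filter. Without the block and with it, edgeR's quasi-likelihood test called 0 of the 37 in either direction, against 0% and 1.53% of all genes. At an unadjusted p under 0.05 the counts were 2 and 7 of the 37, against 9.5% and 17.5% of all genes. The median log2 fold change of the 37 was 0.02 in both fits. In the larger block alone 6 rose and 5 fell of 36 tested, against 7.35% and 6.46% of all genes, and the authors' deposited table calls 3 higher and 1 lower of the 36 it holds, against 4.49% and 3.39% of its genes.

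Of the 15 tested kinases, scaffolds and upstream regulators, 10 had a positive log2 fold change without the block, where 47.1% of all genes were positive. The 3 of highest CPM were Wwc1, Mob1a and Map4k4. Wwc1, which encodes the scaffold KIBRA, was at 440.2 ± 88.1 CPM in post-caerulein (SD, n = 4) and 343 ± 85.2 CPM in untreated libraries (SD, n = 3), a difference that did not pass (adjusted p = 0.703, edgeR quasi-likelihood). Mob1a, a LATS cofactor gene, was at 222 ± 6.40 and 222 ± 13.6 CPM in post-caerulein and untreated libraries, and Map4k4, a kinase gene upstream of LATS, at 218 ± 13.2 and 220.0 ± 41.3 CPM.

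Frmd6, a FERM domain gene upstream of the pathway, was at 35.0, 49.1, 41.6 and 105 CPM in post-caerulein 1 to 4 and at 13.3, 11.6 and 76.8 CPM in untreated 1 to 3. It shared with Ankrd1 the low values in untreated 1 and 2. Its log2 fold change with the block was 1.36 ± 0.27 (SE; adjusted p = 0.0628, edgeR quasi-likelihood), and in the authors' deposited table it is 1.38 with a false discovery rate of 4.3e-06. Fat4, an atypical cadherin gene, reached at most 0.365 CPM, and Dchs1, its ligand, was too low to test.

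Of 9 cofactors and regulators, 2 had a positive and 7 a negative log2 fold change without the block, where 47.1% of all genes were positive. Amotl1, the second angiomotin, was at 160.3, 190, 199 and 302 CPM in post-caerulein 1 to 4 and at 132, 119 and 252 CPM in untreated 1 to 3. With the block its log2 fold change was 0.46 ± 0.12 (SE; adjusted p = 0.0971, edgeR quasi-likelihood), and the authors' deposited table gives 0.48 with a false discovery rate of 0.0333. Ptpn14, a phosphatase gene whose product binds YAP, was at 235 ± 54.0 CPM in post-caerulein and 290 ± 46.8 CPM in untreated libraries, and Limd1, of the Ajuba family, at 121 ± 7.26 and 123 ± 9.11 CPM (SD, n = 4 and 3), neither past the test.

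**Figure D3:**
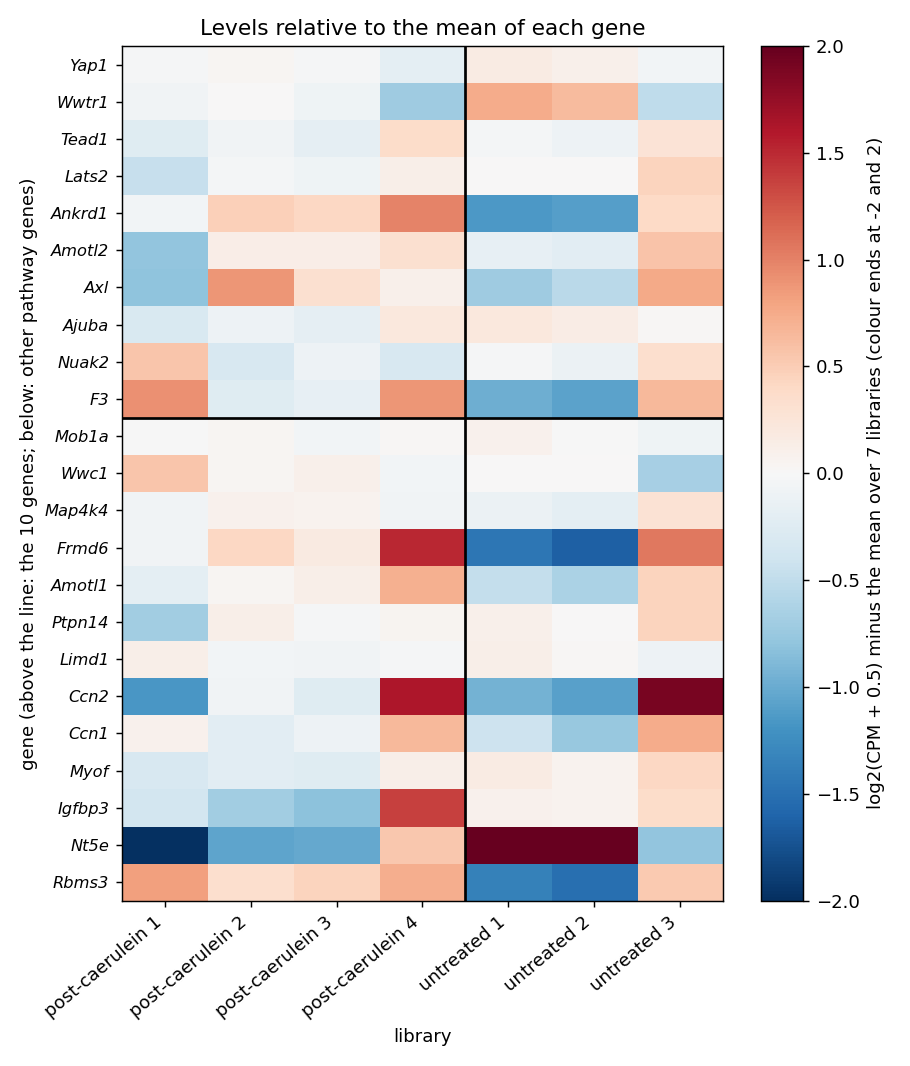
Level of each gene relative to its own mean, as log2(CPM + 0.5) minus the mean over the 7 libraries, for the 10 genes (above the line) and 13 other pathway genes (below it), with post-caerulein libraries left and untreated libraries right. Ankrd1, F3, Frmd6 and Rbms3 share low values in untreated 1 and 2, and Ccn2 is high in post-caerulein 4 and untreated 3, at 336 and 405 CPM.

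Of 15 other YAP and TAZ targets 13 were tested, 7 with a positive and 6 with a negative log2 fold change without the block, where 47.1% of all genes were positive. The classical targets Ctgf (Ccn2) and Cyr61 (Ccn1), which encode matricellular proteins, passed no test over all 7 libraries. Ccn2 was at 48.5, 103, 91.9 and 336 CPM in post-caerulein 1 to 4 and at 56.1, 50.7 and 405 CPM in untreated 1 to 3, so that post-caerulein 4 and untreated 3 exceeded every other library. Its log2 fold change changed sign with the block, -0.24 ± 0.89 without it and 0.34 ± 0.29 with it (SE; adjusted p of 0.973 and 0.610, edgeR quasi-likelihood). Ccn1 was at 300.0, 245, 264 and 445 CPM in post-caerulein 1 to 4 and at 213, 167 and 471 CPM in untreated 1 to 3, again highest in post-caerulein 4 and untreated 3. With the block its log2 fold change was 0.33 ± 0.16 (SE; adjusted p = 0.339, edgeR quasi-likelihood). In the larger block, where post-caerulein 1 to 3 lay above untreated 1 and 2, Ccn1 rose by 0.53 ± 0.14 (SE; adjusted p = 0.0479, edgeR quasi-likelihood), and Ccn2 had 0.63 ± 0.30 (adjusted p = 0.237).

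Myof, a ferlin gene and the most abundant of the list in CPM, was at 977 ± 138 CPM in post-caerulein (SD, n = 4) and 1269 ± 162 CPM in untreated libraries (SD, n = 3), with a log2 fold change of -0.38 ± 0.15 (SE; adjusted p = 0.492, edgeR quasi-likelihood). Rbms3, an RNA-binding protein gene, was at 10.7, 7.52, 8.22 and 10.1 CPM in post-caerulein 1 to 4, and at 2.01, 1.73 and 8.68 CPM in untreated 1 to 3, and the authors' deposited table gives it a log2 fold change of 1.64 with a false discovery rate of 0.00172. Igfbp3, which encodes a binding protein of insulin-like growth factors, was at 253, 200.04, 184 and 841 CPM in post-caerulein 1 to 4 and at 347, 343 and 419 CPM in untreated 1 to 3, so that post-caerulein 4 stood above and post-caerulein 1 to 3 below every untreated library. Foxf2, a mesenchymal transcription factor gene, had no library above 3 reads. Ccdc80 was also too low to test.

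Nt5e, which encodes the ecto-nucleotidase CD73, was at 4.68, 9.82, 10.03 and 30.6 CPM in post-caerulein 1 to 4, and at 110, 87.7 and 11.99 CPM in untreated 1 to 3. It fell by 3.56 on the log2 scale in the larger block (SE 0.31, adjusted p = 0.00121, edgeR quasi-likelihood), but the log2 ratio of post-caerulein 4 over untreated 3 was 1.35. That difference between the blocks passed the interaction test (adjusted p = 0.0160, edgeR quasi-likelihood), as it did for Igfbp3 (0.0284), Rbms3 (0.0421) and Tgfb2 (0.0456), making 4 of the 13 targets against 3.64% of all genes. The error of the interaction test comes from the larger block, which holds both close pairs, and the test was not repeated with these summed. Tgfb2, a TGF-beta ligand gene, was named after its values were seen. The authors' deposited table gives Nt5e a log2 fold change of -2.54 with a false discovery rate of 0.00485, and in these data the blocks had opposite signs.

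**Figure D4:**
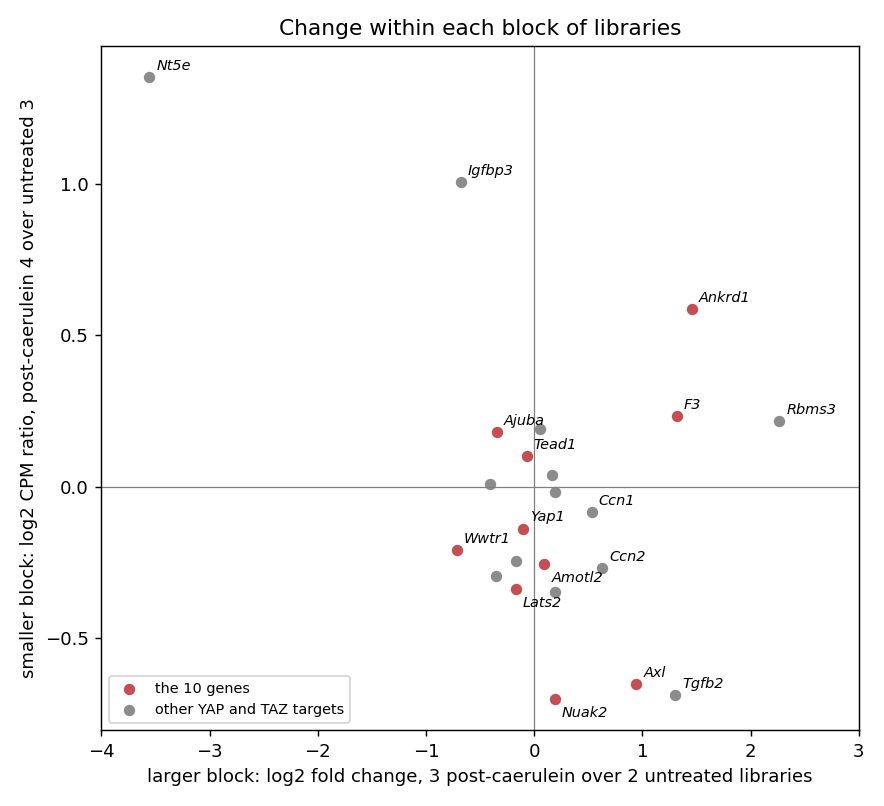
Change within each block: log2 fold change of 3 post-caerulein over 2 untreated libraries in the larger block (horizontal axis) against the log2 CPM ratio of post-caerulein 4 over untreated 3 in the smaller block (vertical axis), for the 10 genes (red) and 13 other targets (grey). Ankrd1 and F3 lie on the positive side of both axes, Wwtr1 on the negative side of both, and Nt5e at -3.56 and 1.35.

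Across the 7 libraries, the genes most like Ankrd1 in log2 CPM were Gata4, Ttc30b and Fam174b, with Pearson correlations of 0.994, 0.993 and 0.992 among 10855 named protein-coding genes. For Wwtr1 they were Ggps1, Rsad2 and Ceacam1 (0.998, 0.998 and 0.995), and for Yap1 they were Slc25a51, Rsbn1 and Klf3 (0.992, 0.990 and 0.989). These are descriptions over 7 libraries that include both close pairs and the 2 libraries of the smaller block.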

How the data were processed

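Poly-A RNA of 4 post-caerulein and 3 untreated spheroid libraries was measured, with groups and numbers read from each sample's title. The count table deposited by the authors gives whole reads per gene beside exon positions and lengths, per the file headers. It was made by featureCounts, listed as version 0.6.1, on the build GRCm38 (mm10), per the submitters' processing notes. Neither the aligner nor the strand setting is stated in any source used here. The authors' deposited table holds log2 fold changes and average log2 CPM, a likelihood ratio score, p-values and false discovery rates, per the file headers, from edgeR 3.2.2 per the submitters' processing notes.

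Genes were kept by filterByExpr (at least 10 counts, total of 15), libraries scaled by TMM, and groups compared by the two-sided robust quasi-likelihood test of edgeR 4.0.16, adjusted by Benjamini-Hochberg over 16438 genes, with calls at 0.05. CPM use TMM-scaled library sizes, and CPM per kilobase divide by exon length. A gene's SE is its log2 fold change divided by the root of its F statistic. The block was found by refitting the deposited table with every split of the libraries into 2 blocks (62 could be fitted). The quasi-likelihood fits were tested on simulated counts, drawn as independent libraries without close pairs, so that test does not bear on the close pairs of the real data. DESeq2 1.42.0 and limma-voom (limma 3.58.1) were alternatives, in R 4.3.3, with figures by matplotlib 3.10.9. At these depths 3 counts, the limit that a count of 0 allows, are 0.0631 to 0.0841 CPM.

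The members, pathway lists, markers and the block were chosen with earlier results of these data known. Of the other pathway genes, those named were called in a fit over all 7 libraries or in the deposited table, were Ccn1 or Ccn2, had one of the 3 highest mean CPM of their list, or had at most 3 reads in every library. Fat4, Dchs1, Ccdc80, Lats1, Amot, Tead2, Tgfb2 and the duct and leukocyte markers printed singly were picked for naming with their values in view. The summed level of the duct marker list is not reported here.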

Additional observations from a re-analysis of the deposited data

Results flagged for a closer look

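Among the 4 post-caerulein libraries, Wwtr1 in post-caerulein 4 (97.1 CPM) lay far below the next lowest (151 CPM), and Igfbp3 in post-caerulein 4 (841 CPM) lay far above the next highest (253 CPM). For 4 independent, normally distributed values, chance alone sets 1 apart in this way in about 1 of 20 groups. A few such cases are therefore to be expected when many genes are screened. That rate need not hold here, because post-caerulein 2 and 3 are a close pair and post-caerulein 4 belongs to the smaller block.

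The change between post-caerulein and untreated libraries differed between the blocks for 4 other targets, by edgeR's quasi-likelihood interaction test. The log2 change in the smaller minus that in the larger block was 4.94 for Nt5e, 1.71 for Igfbp3, -2.02 for Rbms3 and -1.97 for Tgfb2. The smaller block holds 1 library of each group, so the error of the test comes from the larger block, which holds both close pairs. The test was not repeated with the close pairs summed, and what the block stands for was not tested.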

How the results depend on the processing

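The counts of calls depended strongly on the block and on the 2 libraries of the smaller block. Against 0 genes called with the group as the only term, 23 were called without a filter on low counts, 251 with the block, 2247 in the larger block alone, 346 by a likelihood ratio test, 1236 by that test with the block and 509 by DESeq2. With the block, RLE scaling gave 234 and upper quartile scaling 217. Leaving out 1 library gave 0 to 1149 genes without the block (1149 without untreated 3, 57 without post-caerulein 4). With the block it gave 0 without untreated 1 or 2, 131, 29 and 3 without post-caerulein 1, 2 and 3, 2267 without untreated 3 and 2086 without post-caerulein 4. The last 2 of these fits, here and below, repeat the larger block alone. The block term then absorbs the library left in the smaller block. With each close pair summed to 1 library, 0 genes were called in either fit, of all genes as of the 10.

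Of the 10 genes, 0 were called with the group only, 1 with the block, 2 in the larger block, 2 by the likelihood ratio test with the block, 1 with the block and RLE and 0 with upper quartile, where Ankrd1 had an adjusted p of 0.0517 (edgeR quasi-likelihood). Leaving out 1 library gave 0 to 2. For the other pathway genes, 0 became 11 in the larger block, 4 by the likelihood ratio test with the block and 0 to 4 without 1 library (with the block 0 to 10, and 9 without post-caerulein 4). The interaction of group and block called 1265 genes without a filter, against 599.

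The 30 alternatives overlap, since several refit the same model with another test or repeat the larger block. None was the smaller block alone, where Ajuba had a log2 ratio of 0.18, opposite in sign to its fits. The log2 fold changes of Yap1, Wwtr1, Lats2, Ankrd1, Ajuba and F3 kept their sign in all 30 alternatives. That of Amotl2 turned to 0.095 in the larger block and 0.0094 with the block under upper quartile scaling, and without 1 library ran from -0.25 to 0.21 (with the block 0.14 without post-caerulein 1 and 0.092 without either library of the smaller block). That of Nuak2 turned to 0.19 in the larger block and ran from -0.33 to 0.090 without 1 library (with the block 0.19 without either library of the smaller block and 0.00062 without post-caerulein 2). That of Tead1 ran from -0.21 to 0.081 without 1 library (0.014 with the block and without post-caerulein 1), and that of Axl from -0.046 to 0.90, with -0.15 when the close pairs were summed. The cause was not tested. Upper quartile scaling moved the median of all genes by 0.03 on the log2 scale.

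Nothing in the counts showed that equal replicate numbers pair the libraries. The correlations of deviations from the group means were 0.397, 0.162 and -0.233 for numbers 1, 2 and 3, and not every library correlated best with its own number. Untreated 3 and post-caerulein 4 correlated at 0.564. The smaller block thus weighs on these values, which cannot settle whether the libraries are paired by number. The fit with that replicate block called 0 genes and 0 of the 10.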
